A study of Mus musculus with 2 samples.

Results

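The subject is 54 genes that act in mitosis, followed in single cells of the mouse tongue epithelium at 2 times of day. They were taken by symbol from a given list, and all 54 were found among the 32285 genes of the count tables. They fall into 8 groups by function: the CDK1 engine that starts mitosis, the Aurora kinases, the kinetochore, the checkpoint and anaphase control, the spindle, the midzone, chromosome structure, and the nuclear envelope. The cells came from male mice of the strain labelled B57BL/6, aged 8 to 12 weeks, at Zeitgeber time 0 (ZT0, lights on in the usual convention) or Zeitgeber time 12 (ZT12, lights off). No genetic change and no treatment is named for either group. TrypLE, an enzyme preparation, freed the cells, those that kept out the dye 7-AAD were sorted as alive, and 10x Genomics 3' libraries were made from them. There was 1 library per time and how many mice went into each is not stated in the labels. No spread between animals can therefore be stated, no test was made, and every interval below covers counting error only.

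A cell that divides switches on a common set of genes late in its cycle. Cyclin B and CDK1 start mitosis, Aurora kinases and motor proteins build the spindle, kinetochores hold the chromosomes to it, and a checkpoint holds back the anaphase-promoting complex until all are attached. That complex, working with the enzyme Ube2c and the activator Cdc20, then marks cyclin B and other proteins for destruction, and the cell divides at the midzone. In the tongue, as in other stratified epithelia, most divisions take place in the basal layer and the cells that leave it stop dividing and differentiate. A tissue can therefore hold more mitotic transcripts because more of its cells divide or because each dividing cell holds more of them.

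To look at the 2 in turn, a cell was put inside a gate when its UMIs (unique molecular identifiers, which count captured transcripts) of Top2a and Mki67 together came to 3 or more per 10000 UMIs. Top2a, a topoisomerase that untangles chromosomes, and Mki67, which coats mitotic chromosomes, are present in dividing cells from S phase on. Because these 2 members set the gate, they were left out of counts and medians inside and outside it, which leaves 52. The gate is a range of a score and not a cell type. Levels are CPM, the UMIs of a gene summed over the cells named and scaled to their total UMIs, and a ratio of levels is ZT0 over ZT12 unless the log2 scale is named. A log2 ratio is of CPM plus 1, ZT12 over ZT0. A gene was assessed when its mean CPM over the libraries was 5 or more. It met the size rule when its level differed by a log2 ratio of 1 or more, up or down, and the 95% interval of the ratio left out 1.

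After filtering there were 1593 cells with 49256011 UMIs at ZT0 and 2620 cells with 67059151 UMIs at ZT12. Median depth was 28401 and 23088 UMIs per cell, and the libraries shared 2 cell barcodes. The gated cells were keratinocytes by their markers: summed levels over 7 basal genes were 16398 CPM at ZT0 and 23183 CPM at ZT12, with Krt5 at 3594 and 4992 CPM. Over 10 leukocyte genes the sums inside the gate were 18.9 and 1.63 CPM. Ptprc, Cd52, Nkg7 and Cd3g had 22, 69, 17 and 16 UMIs there at ZT0 and 0 at ZT12. Single cells were marked by 6 of the 10 genes: Ptprc, Cd3g, Nkg7, Cd52, Tyrobp and Fcer1g, and so not by Cd74. By that rule 3 of 213 gated ZT0 cells held 3 or more leukocyte UMIs, against none of 78 at ZT12. Leukocyte sums were also higher at ZT0 outside the gate, at 195 and 40.3 CPM, and in all cells, at 167 and 39.2 CPM. Of 10 fibroblast, endothelial, muscle and glial genes, Dcn gave nearly all of the sums of 1279 and 1090 CPM inside the gate, and Col3a1, Cdh5 and Kdr were at 0. The part of these other cell types in the results was not tested. Without cells holding 3 or more UMIs of the 6 leukocyte genes, the ratio of gated shares given below was 4.47. The members' median log2 ratio inside the gate was then -1.08.

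Promoters of these genes are known for 2 short motifs: the CHR (cell cycle genes homology region) and the CCAAT box, bound by NF-Y. Through the CHR, repressor complexes hold mitotic genes off early in the cycle and activator complexes switch them on late in it. RefSeq (build GRCm38.p6) gave a promoter for 48 of the 54 members, from 250 bases before to 50 after the start site. The CHR-type motif TTTGAA was searched for on both strands, where the opposite strand reads TTCAAA. The related TTTAAA, whose opposite strand reads the same, and the box CCAAT, whose opposite strand reads ATTGG, were searched for likewise. Matches were counted whether or not they overlapped. TTTGAA was found in 34 of 48 members, or 70.8%, against 20.2% of 27025 symbols in the table and 14.1% of 7641 genes at 5 CPM or more in these cells. TTTAAA was found in 13 members, 27.1%, against 14.9% of the symbols, and CCAAT in 38, 79.2%, against 41.1%. A CHR-type match together with CCAAT stood in 32 members, 66.7%, against 12.2% of all symbols and 9.0% of the expressed genes. A match is a run of letters and not a shown binding site. The 120 bases upstream of the start are printed for Cdk1, Ccnb1, Cdc20 and Ube2c as genes of mitotic entry and exit, for Kif11 as a spindle motor, for Top2a as a gene of the gate, and for Nusap1, which has no match although it was the member most confined to gated cells at ZT0. They were chosen after the matches and levels were seen. Capitals mark the motif matches on either strand, and each line reads 5′ to 3′ along the gene.
Cdk1, chr10:69352913-69353032, minus strand: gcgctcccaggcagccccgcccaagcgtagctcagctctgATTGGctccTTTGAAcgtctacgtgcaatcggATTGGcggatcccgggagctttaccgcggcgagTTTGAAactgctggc
Ccnb1, chr13:100786487-100786606, minus strand: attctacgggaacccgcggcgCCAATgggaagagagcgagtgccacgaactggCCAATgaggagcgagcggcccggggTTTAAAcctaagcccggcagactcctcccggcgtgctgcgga
Cdc20, chr4:118437344-118437463, minus strand: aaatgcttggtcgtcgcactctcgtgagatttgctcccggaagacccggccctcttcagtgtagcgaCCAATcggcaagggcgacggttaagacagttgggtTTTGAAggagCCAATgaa
Ube2c, chr2:164769809-164769928, plus strand: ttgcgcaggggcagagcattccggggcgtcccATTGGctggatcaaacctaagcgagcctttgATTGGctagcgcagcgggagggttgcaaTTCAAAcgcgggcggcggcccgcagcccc
Kif11, chr19:37376262-37376381, plus strand: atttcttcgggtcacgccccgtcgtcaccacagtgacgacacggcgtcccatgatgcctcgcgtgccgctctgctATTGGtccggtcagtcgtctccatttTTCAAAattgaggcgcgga
Top2a, chr11:99024190-99024309, minus strand: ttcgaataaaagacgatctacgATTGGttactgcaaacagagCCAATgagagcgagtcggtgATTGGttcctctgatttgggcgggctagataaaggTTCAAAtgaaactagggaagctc
Nusap1, chr2:119618178-119618297, plus strand: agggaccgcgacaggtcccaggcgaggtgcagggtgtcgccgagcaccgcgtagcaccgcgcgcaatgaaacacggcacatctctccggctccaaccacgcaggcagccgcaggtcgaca

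A several times larger share of the cells was gated at ZT0 than at ZT12. The gate held 213 of 1593 ZT0 cells, 13.4% (exact Clopper-Pearson 95% interval 11.7% to 15.1%), and 78 of 2620 ZT12 cells, 2.98% (2.36% to 3.70%). The ratio of shares was 4.49 (exact conditional binomial 95% interval 3.45 to 5.90). With every cell thinned to 10000 UMIs, so that depth was alike, the shares were 206 of 1486 cells, 13.9%, and 97 of 2455, 3.95%, a ratio of 3.51 (2.74 to 4.51). The same deep cells before thinning gave 13.5% and 3.05%. Thinning left out 107 ZT0 and 165 ZT12 cells. A gate on 12 mitosis genes that are not members gave a ratio of 3.48.

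The gated cells also stood at different heights above the limit. Of the gated ZT0 cells 156, or 73.2%, held 12 or more Top2a and Mki67 UMIs per 10000, against 19 gated ZT12 cells, or 24.4%. Between 3 and 6 per 10000 there were 28 cells (13.1% of those gated) at ZT0 and 30 (38.5%) at ZT12, and between 6 and 12 there were 29 (13.6%) and 29 (37.2%). As shares of all cells, the lowest band held 1.76% at ZT0 and 1.15% at ZT12, a ratio of 1.54 whose interval, 0.884 to 2.66, includes 1. The band of 12 or more held 9.79% and 0.725%, a ratio of 13.5 (8.36 to 23.0). The excess of gated cells at ZT0 thus lay mostly among cells far above the limit. Within 25% of the limit, on either side, were 22 ZT0 and 34 ZT12 cells, and 10 gated ZT0 cells and 1 gated ZT12 cell passed on only 1 or 2 gate UMIs.

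**Figure D1:**
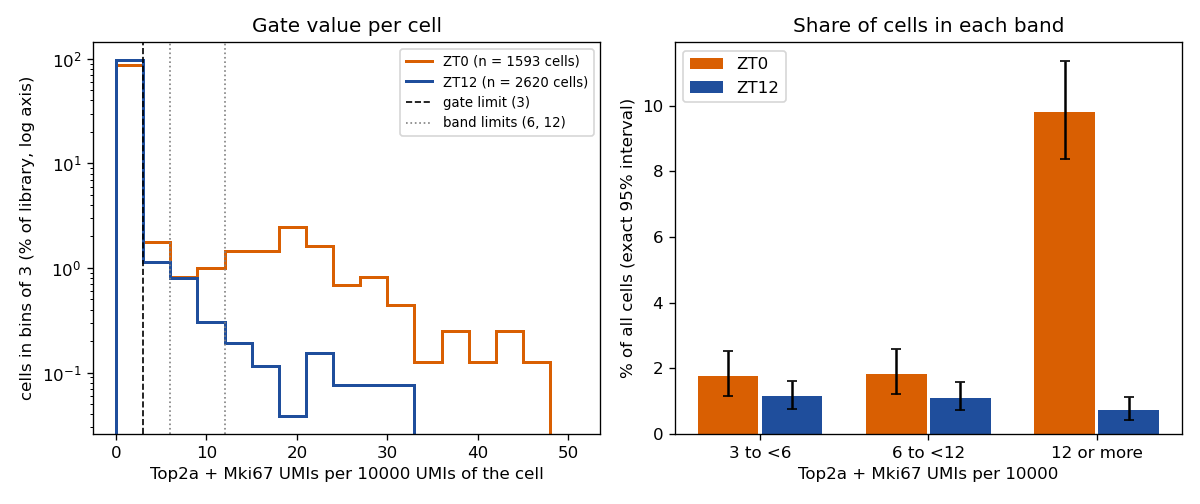
Left, Top2a plus Mki67 UMIs per 10000 UMIs of the cell (x axis, bins of 3) against the percentage of each library's cells in the bin (y axis, log scale), with the gate limit and band limits marked; right, the percentage of all cells in each band with exact 95% intervals. The libraries lie close together in the 2 lower bands, while 9.79% of ZT0 cells and 0.725% of ZT12 cells hold 12 or more.

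The excess was present among basal and suprabasal cells. Cells were split by whether Krt5 and Krt15, keratins of the basal layer, or Krt13 and Krt4, keratins of the layers above, had more UMIs. Of basal-led cells, 173 of 794 (21.8%) were gated at ZT0 and 72 of 1052 (6.84%) at ZT12, a ratio of 3.18 (2.40 to 4.25). Among suprabasal-led cells, 40 of 799 (5.01%) and 6 of 1568 (0.383%) were gated, a ratio of 13.1 (5.51 to 37.8). Suprabasal-led cells made up 18.8% of the gated cells at ZT0 and 7.69% at ZT12. Doublets of a basal and a suprabasal cell were in effect not removed here, and their part in this split was not tested.

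A gated cell at ZT0 carried more transcripts of the other 52 mitosis genes. Summed over those genes, the median gated cell held 171 UMIs per 10000 at ZT0 (quartiles 115 and 209) and 53.8 at ZT12 (quartiles 40.5 and 92.8). Depth moved with this: the median gated cell had 37347 UMIs in all at ZT0 and 24818.5 at ZT12. After thinning to 10000 UMIs per cell the median log2 ratio over the members in gated cells, given for unthinned cells below, was -1.32. The gate was redrawn on the thinned counts and then held 206 ZT0 and 97 ZT12 cells. That value is therefore not one of the same cells at equal depth. In ungated cells the medians were 11.3 per 10000 at ZT0 (quartiles 9.15 and 13.97) and 10.5 at ZT12 (8.21 and 13.3), so the libraries overlapped almost wholly there. The 52 genes came to 100 or more per 10000 in 172 of 213 gated ZT0 cells (80.8%) and 17 of 78 gated ZT12 cells (21.8%). Outside the gate such cells were rare, with 3 of 1380 at ZT0 and 1 of 2542 at ZT12.

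Within each band of gate value the libraries lay nearer to each other than over all gated cells. In the lowest band the median sum was 35.6 per 10000 at ZT0 and 41.2 at ZT12. In the middle band it was 120 and 54.7, and in the band of 12 or more 188 and 118. The highest value of all belonged to a ZT12 cell, with 367 per 10000, against at most 323 in any gated ZT0 cell. That cell alone held 1425 member UMIs, 9.45% of the member UMIs in gated ZT12 cells.

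**Figure D2:**
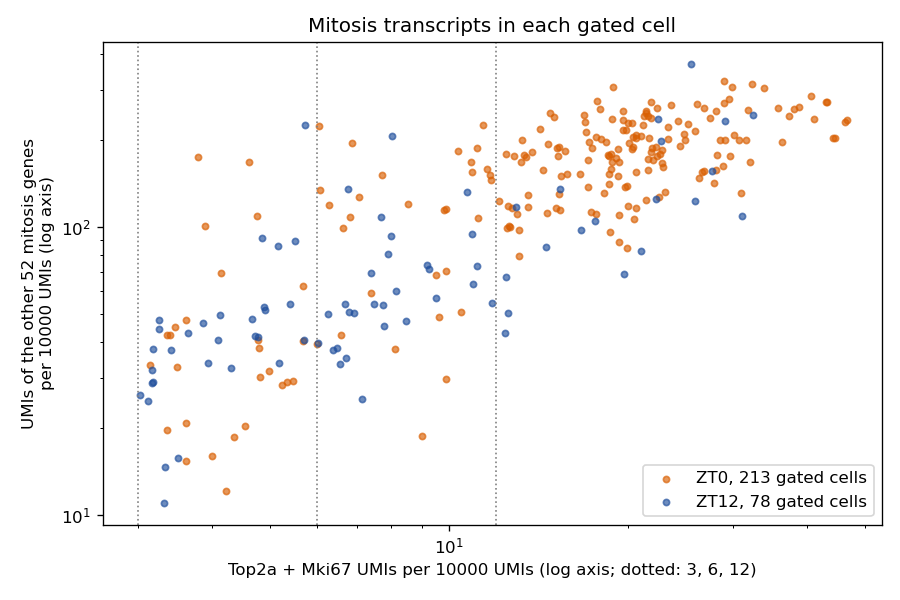
Each point is a gated cell, placed by its Top2a plus Mki67 UMIs per 10000 (x axis) and the summed UMIs of the other 52 mitosis genes per 10000 (y axis), both on log scales; dotted lines mark 3, 6 and 12. The 213 ZT0 cells crowd to the upper right, with a median sum of 171, while most of the 78 ZT12 cells lie lower and to the left, with a median of 53.8.

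Inside the gate all 52 members had a lower summed level at ZT12 than at ZT0, and 32 of them met the size rule as lower. None met it as higher. Over all 9673 genes assessed inside the gate, 3.53% met the rule as lower at ZT12 and 1.84% as higher. The median log2 ratio of the members was -1.07, from -2.15 for Ube2c to -0.03 for Cbx5, and that of all genes was -0.03. By group, the median log2 ratio lay between -1.25 and -1.11 for the CDK1 engine, spindle, midzone and checkpoint genes. It was -0.95 for the Aurora group, -0.91 for the kinetochore, -0.72 for chromatin and -0.63 for the nuclear envelope. By summed level the checkpoint and anaphase genes, which include Ube2c, stood at 1448 and 503 CPM and the CDK1 engine at 2417 and 1072 CPM. Differences between groups were not tested. The values of each group follow, with exact Poisson 95% intervals in brackets for levels.

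Of the 9 genes of the CDK1 engine, 8 met the rule, with a group median log2 ratio of -1.25. Plk1, the Polo kinase that drives entry into mitosis and spindle assembly, had the widest difference, at 139 CPM (131 to 147) in the ZT0 library against 42.3 CPM (33.5 to 52.8) in the ZT12 library, a ratio of 3.28 (2.60 to 4.18). The phosphatase Cdc25c, which removes the inhibiting phosphates from CDK1, stood at 51.8 and 16.8 CPM, a ratio of 3.08 (2.14 to 4.60). Cyclin B1 (Ccnb1), the partner of CDK1, was at 319 and 123 CPM, and cyclin B2 (Ccnb2) at 240 and 113 CPM. Cdk1 itself was at 430 CPM (415 to 445) and 206 CPM (185 to 227), a ratio of 2.09 (1.88 to 2.33). The ratio was 2.59 (2.26 to 2.98) for Ccnb1 and 2.12 (1.84 to 2.46) for Ccnb2, so the kinase subunit lay close to the latter cyclin, and differences between these ratios were not tested. Cks2, a small CDK-binding protein, stood at 613 and 247 CPM, while its close relative Cks1b, at 258 and 161 CPM (ratio 1.61, 1.42 to 1.82), was the member of this group that did not meet the rule. Cdca3 and Gtse1, 2 proteins of the late cycle, had ratios of 2.23 and 2.50.

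Both Aurora kinases met the rule, and the 3 members that bind them did not. Aurka, which matures the centrosomes and builds the spindle poles, was at 120 CPM (112 to 128) and 30.4 CPM (23.0 to 39.5), a ratio of 3.94 (3.01 to 5.26). Aurkb, the kinase of the chromosomal passenger complex that corrects wrong attachments, was at 204 and 72.7 CPM, a ratio of 2.81 (2.35 to 3.38). Its partners survivin (Birc5) and borealin (Cdca8) were at 465 and 250 CPM and at 420 and 216 CPM, with ratios of 1.86 and 1.94. Tpx2, which activates Aurka on spindle microtubules, differed least, at 247 CPM (236 to 258) and 140 CPM (123 to 158), a ratio of 1.77 (1.55 to 2.02). The gap between kinases and partners is not general: Incenp, a further partner that is no member, met the rule in all gated cells. Without the ZT12 cell that held the most member UMIs Birc5 met it at the limit, with a ratio of 2.00 (1.81 to 2.22). Here and below that cell was taken out of the ZT12 library only, which raises most ratios by construction. Whether the kinases differ from their partners was not tested.

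Among the 6 centromere and kinetochore genes, 3 met the rule. Cenpf, a large protein of the outer kinetochore that accumulates in G2, led them with 717 CPM (698 to 736) in the ZT0 library against 251 CPM (229 to 275) in the ZT12 library, a ratio of 2.85 (2.59 to 3.14). Ndc80, the microtubule-binding subunit of the complex that shares its name, was at 103 and 47.2 CPM, a ratio of 2.19. Its direct partner Nuf2 was at 72.4 and 48.8 CPM, a ratio of 1.48 (1.19 to 1.87) that did not meet the rule. The centromeric histone Cenpa stood at 378 and 188 CPM, a ratio of 2.01 just past the limit. Cenpe, a motor that brings chromosomes to the spindle equator, had a ratio of 1.78, and Hjurp, the chaperone that loads Cenpa, was at 172 CPM (162 to 181) and 120 CPM (105 to 137), the narrowest of the group with a ratio of 1.42 (1.23 to 1.65).

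In the checkpoint and anaphase group 3 of 5 genes met the rule. Ube2c, the ubiquitin-conjugating enzyme of the anaphase-promoting complex, had the widest difference of all 52 members, with 874 CPM (853 to 895) in the ZT0 library against 196 CPM (176 to 217) in the ZT12 library, a ratio of 4.46 (4.01 to 4.97). A single ZT12 cell, the cell with the most member UMIs, gave 28.3% of the ZT12 UMIs of Ube2c, and without it the ratio was 6.09 (5.38 to 6.92). The median gated cell held 6.29 UMIs of Ube2c per 10000 at ZT0 and 0.366 at ZT12. Nek2, a kinase that separates the centrosomes, and Bub1, a checkpoint kinase, had ratios of 2.40 and 2.20. Cdc20, the activator of the complex and the target of the checkpoint, was at 367 and 206 CPM, a ratio of 1.78 (1.60 to 1.99) that did not meet the rule, although without the same cell it was 2.12 (1.88 to 2.39) and met it. Ttk, the kinase at the head of the checkpoint, differed least, at 70.1 CPM (64.3 to 76.2) and 41.8 CPM (33.0 to 52.2), a ratio of 1.68 (1.32 to 2.16).

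Spindle genes met the rule in 9 of 11 cases, with a group median of -1.19. Nusap1, which bundles spindle microtubules near chromosomes, was at 363 CPM (350 to 377) and 102 CPM (87.9 to 118), a ratio of 3.56 (3.07 to 4.15). Psrc1 and Ckap2, both microtubule-associated, had ratios of 2.87 and 2.72. Tubb4b, a beta-tubulin that is also made by cells that do not divide, was at 1738 and 693 CPM, a ratio of 2.51 (2.37 to 2.66). The motor Kif11, which pushes the spindle poles apart, was at 239 and 98.2 CPM, a ratio of 2.43 (2.08 to 2.85). Dlgap5, Hmmr, Tacc3 and Ckap2l, which stabilise or anchor spindle microtubules, had ratios from 2.05 to 2.31. Kif2c, a microtubule depolymerase, lay at the limit with a log2 ratio of -0.99, and Ckap5, a microtubule polymerase, differed least with 134 CPM (126 to 143) and 80.3 CPM (67.9 to 94.3), a ratio of 1.67 (1.41 to 2.00).

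Of the 6 midzone and cytokinesis genes, 5 met the rule. Gas2l3, a linker of actin and microtubules in late mitosis, was at 125 CPM (118 to 133) and 28.2 CPM (21.1 to 37.0), a ratio of 4.44 (3.36 to 5.99). Only 52 UMIs stood behind the ZT12 value and 48.1% of them came from the same single cell, without which the ratio was 8.37 (5.72 to 12.8). Prc1, which cross-links the antiparallel microtubules of the midzone, was at 503 and 171 CPM, a ratio of 2.93 (2.61 to 3.30). Ect2, which activates RhoA at the cleavage furrow, had a ratio of 2.32, anillin (Anln), a scaffold of the contractile ring, 2.07, and the midzone motor Kif23 2.01. Kif20b differed least, at 159 CPM (150 to 168) and 94.9 CPM (81.4 to 110), a ratio of 1.67 (1.42 to 1.97).

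Chromatin and nuclear envelope genes, many of which cells outside mitosis also use, differed less. In the chromatin group only Cdca2, a phosphatase-targeting protein on chromosomes, met the rule, at 98.3 CPM (91.4 to 105) and 47.7 CPM (38.3 to 58.8). The condensin subunit Smc4 lay at the limit, at 674 and 337 CPM with a log2 ratio just short of -1, and its partner Ncapd2 had a ratio of 1.57. Hmgb2, an abundant DNA-bending protein, was at 2526 and 1498 CPM, a ratio of 1.69 (1.62 to 1.76). Cbx5, the heterochromatin protein HP1 alpha, was at 165 CPM (156 to 174) and 161 CPM (143 to 181), a ratio of 1.02 (0.899 to 1.16) whose interval includes 1. Of the 4 envelope and other genes, G2e3, a ubiquitin ligase, was at 86.0 CPM (79.6 to 92.8) and 39.6 CPM (31.0 to 49.8) and met the rule, while Tmpo and Lbr of the inner nuclear membrane and Rangap1, the activator of the Ran GTPase, had ratios from 1.53 to 1.55. Lbr, the narrowest of them, was at 175 CPM (166 to 185) and 114 CPM (99.6 to 131). As a description only, the gate genes stood at 1177 and 544 CPM for Top2a and 723 and 496 CPM for Mki67.

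**Figure D3:**
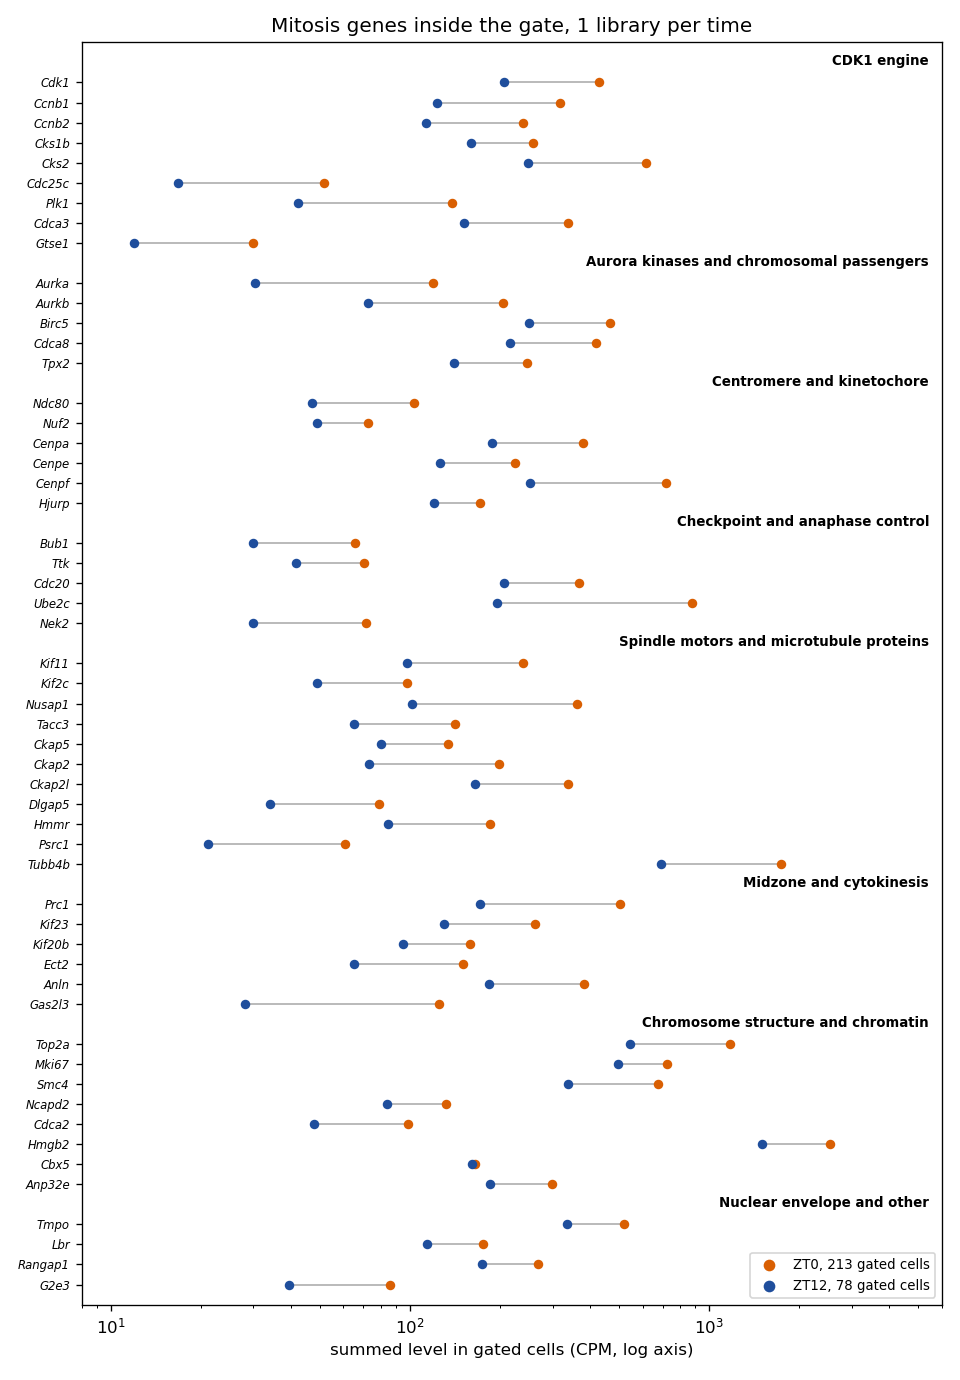
Summed level of each of the 54 mitosis genes in gated cells (x axis, CPM, log scale), grouped by function, with ZT0 in orange and ZT12 in blue joined by a grey line; 213 and 78 cells, 1 library each. Every ZT12 point lies left of its ZT0 point, by 4.46-fold for Ube2c and 1.02-fold for Cbx5.

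The share of gated cells with a transcript was also lower at ZT12. After thinning to 10000 UMIs, the gate was redrawn on the thinned counts. Ube2c was then detected in 84.0% of gated ZT0 cells and 37.1% of gated ZT12 cells (before thinning, in the first gate, 90.1% and 52.6%). Nusap1 was detected in 79.1% and 23.7% (84.5% and 41.0%), Aurka in 54.4% and 18.6% (80.3% and 29.5%) and Cdk1 in 86.9% and 60.8% (89.2% and 82.1%). As a background, in ungated suprabasal-led cells, which have mostly left the cycle, thinned shares were 2.29% and 1.09% for Ube2c, 0.429% and 0.136% for Nusap1, 1.43% and 0.611% for Aurka and 1.43% and 0.679% for Cdk1. Those cells had median depths of 34378 and 28464 UMIs. Hmgb2 and Tmpo, which are abundant, were detected in 99.0% and 99.0% and in 96.1% and 92.8% of gated cells. Shares so high leave little room to differ, and the summed levels of both, given above, were lower at ZT12.

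Within bands of gate value, the members' median was nearer to 0 in each of the 3 bands than over all gated cells. The bands match the gate value only roughly. Its median was 4.28 at ZT0 and 4.01 at ZT12 in the lowest band, 9.62 and 7.73 in the middle band, and 20.4 and 21.0 in the highest. In the band of 3 to 6 per 10000, no member met the rule as lower (3.13% of all genes did) and 3 met it as higher at ZT12, against 2.59% of all genes, with a member median of +0.15. These 3 were Cdk1, at 59.4 and 123 CPM, Nuf2, at 5.52 and 28.0 CPM, and Ect2, at 13.8 and 46.1 CPM. This band held only 28 ZT0 and 30 ZT12 cells with 724445 and 607833 UMIs in all, so the levels of Nuf2 and Ect2 rest on few UMIs. In the band of 6 to 12, 22 of 52 members met it as lower, against 5.29% of all genes, and none as higher, against 3.1%, with a median of -0.91. Ube2c was at 540 and 71.3 CPM there, Cenpf at 452 and 122 CPM, and Cdk1 at 239 and 172 CPM. Markers of other cells moved in the same band: the suprabasal markers summed to 9106 and 3667 CPM, with 3 of 5 lower by the rule, and the leukocyte markers to 58 UMIs and 1 UMI, with 3 of 3 lower. Their part in the members' values was not tested. In the band of 12 or more, 1 member, Gtse1, met it as lower, against 2.75% of all genes, and the median was -0.39. There Ube2c was at 1017 and 558 CPM, a ratio of 1.82 (1.62 to 2.06), Cdk1 at 500 and 348 CPM and Cdc20 at 402 and 367 CPM. This band rests on only 19 ZT12 cells. When the ZT12 levels were weighted to the ZT0 makeup of bands, a calculation added after the data were seen, the median log2 ratio over 52 members was -0.39 and 2 of 52 members met the rule, Gas2l3 and Gtse1, which is near the 2.68% of all genes that met it as lower.

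Outside the gate mitotic transcripts were scarce, and the members abundant enough to assess differed little. Only 21 of the 52 members reached a mean of 5 CPM there, none met the rule in either direction (0.971% of all genes met it as lower and 0.342% as higher), and their median log2 ratio was -0.11, against -0.008 for all genes. The sign of that median turned with the filter, being +0.10 over members of 20 CPM or more. The most abundant of those that passed were Tubb4b at 448 and 415 CPM, Hmgb2 at 150 and 135 CPM, Rangap1 at 91.8 and 107 CPM and Tmpo at 81.8 and 92.9 CPM. Cbx5 was higher at ZT12 outside the gate, at 29.98 and 40.6 CPM, which is a log2 ratio of +0.43. The widest decrease among those that passed was Cenpf, at 8.28 and 4.40 CPM. Without the filter 2 members met the rule, Ube2c at 6.62 and 2.05 CPM and Cenpa at 5.23 and 1.92 CPM.

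In ungated basal-led cells the 52 members summed to 1228 CPM at ZT0 against 1238 CPM at ZT12, a ratio of 0.992 (0.972 to 1.01). In ungated suprabasal-led cells they summed to 1231 and 1147 CPM, a ratio of 1.07 (1.06 to 1.09). These sums are mostly of broadly expressed members such as Tubb4b and Hmgb2. Ube2c met the rule as lower in ungated basal-led cells, at 13.6 and 4.55 CPM, a ratio of 2.98 (2.29 to 3.91). After thinning, with the gate redrawn, it was detected in 11.0% and 3.61% of the basal-led cells outside the gate. The 30 members with over 90% of their ZT0 UMIs in gated cells came to 121 and 91.9 CPM in basal-led cells, a ratio of 1.31 (1.23 to 1.41), and to 54.0 and 30.5 CPM in suprabasal-led cells, a ratio of 1.77 (1.65 to 1.91). The summed level of these 30 genes in ungated cells was thus low, and higher at ZT0. The 30 were picked by counts of the ZT0 library, 1 of the 2 sides compared, so the sums are a description only. The part of free RNA from gated cells in these sums was not tested. Single genes of the 30 did not all follow the sum in basal-led cells. Ube2c, given above, and Cenpf, at 17.8 and 9.76 CPM, weighed most on the difference there. Cdk1 lay the other way, at 4.36 and 8.39 CPM, a ratio of 0.520 (0.381 to 0.702).

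**Figure D4:**
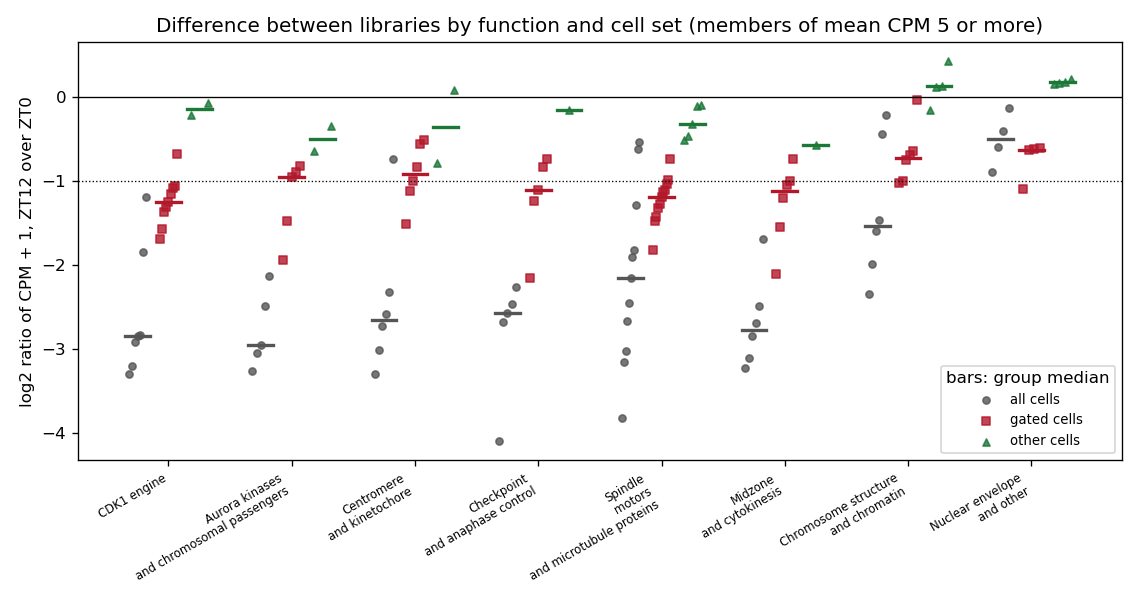
Log2 ratio of CPM plus 1, ZT12 over ZT0 (y axis), of each mitosis gene with a mean CPM of 5 or more, by function (x axis), in all cells (grey circles), gated cells (red squares) and other cells (green triangles); bars are group medians, and Top2a and Mki67 are left out. The medians over all groups are -2.48 in all cells, -1.07 in gated cells and -0.11 in other cells.

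In all cells together, 43 of the 52 members that could be assessed were lower at ZT12 by the rule and none higher, against 2.49% of all genes lower and 0.283% higher. Cdc25c and Gtse1 were below 5 CPM on average and were not assessed. Without the gate genes the count was 41 of 50 and the median log2 ratio -2.48. Some members, such as Plk1 at 22.1 and 1.36 CPM, reached the mean of 5 CPM through ZT0 alone. The filter thus favours members lower at ZT12. With no minimum CPM, 43 of the 52 members other than the gate genes were lower, against 2.02% of all genes. Ube2c stood at 143 and 7.38 CPM, Nusap1 at 57.5 and 3.12 CPM, Cenpf at 119 and 11.2 CPM, and Cdk1 at 69.7 and 8.32 CPM. The 9 that did not meet the rule were Hjurp, Tubb4b, Ckap5, Anp32e, Cbx5 and the 4 nuclear envelope and other genes. In bulk tissue such a difference could not be divided by cell, whereas here the gated share and the levels can be set apart by arithmetic. The gate is itself a limit on the level of 2 members, with median values in gated cells of 18.5 at ZT0 and 6.85 at ZT12. A cell with less of these transcripts can fall below it and so count in the share. The split therefore cannot assign the difference to the number of dividing cells or to the RNA in each.

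With the gate as set, the share of UMIs that came from gated cells was the larger part. That share combines the number of gated cells and the UMIs each of them held, so it is not the number of cells alone. Gated cells held 15.7% of the library's UMIs at ZT0 and 2.75% at ZT12, a ratio of 5.71. This is above the ratio of cell shares, and the median gated cell had 37347 UMIs against 26849.5 in ungated cells at ZT0, but 24818.5 against 23068 at ZT12. For each member the all-cell level was recomputed with the ZT12 share of UMIs and the ZT0 levels inside and outside the gate, and the other way round. The share alone gave a median log2 ratio of -1.83 over the 52 members and the levels alone -0.90. The share gave the larger part for 50 members, and the levels for Psrc1 and Tubb4b. For the 52 members summed, the log2 ratios were -1.16 and -0.71. No split by the number of cells was made, and none with another gate or after thinning. Related values moved with the gate. At a limit of 2 the ratio of cell shares was 3.49 and the members' median inside the gate -1.33. With 12 other genes they were 3.48 and -1.32. At a limit of 5 they were 5.82 and -0.87, against 4.49 and -1.07 as set. Whether the share stays the larger part with other gates was not tested. For Ube2c, with the share counted in UMIs, the parts were nearly equal. They were 30.5 CPM from the share alone and 32.5 CPM from the levels alone, starting from 143 CPM. For Ckap5 they were 39.0 and 41.3 CPM from 51.6 CPM. For Cdk1 they were 14.3 and 34.6 CPM from 69.7 CPM, and for Nuf2 2.32 and 7.84 CPM from 11.7 CPM. Cbx5 moved down with the share and up with the levels, to 33.7 and 59.6 CPM from 51.1 CPM.

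**Figure D5:**
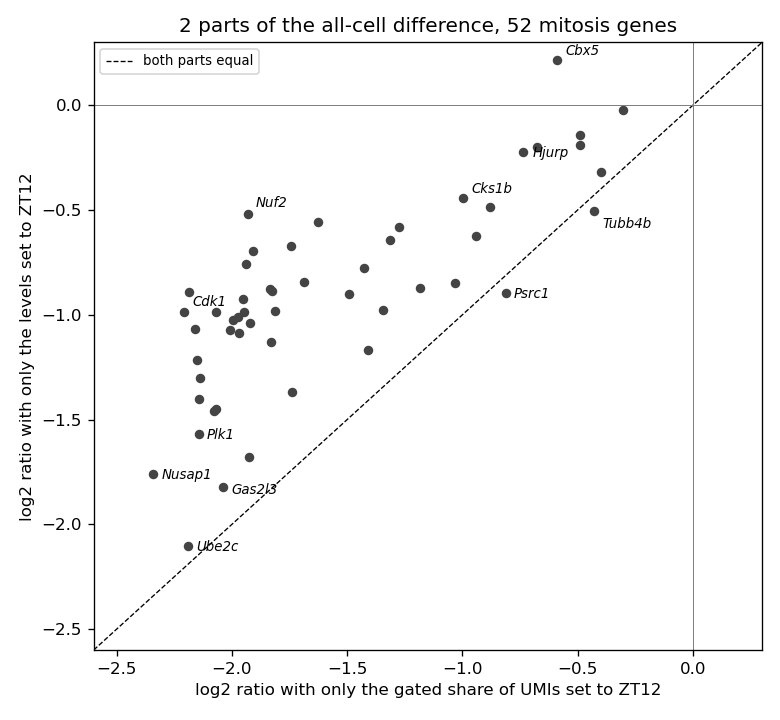
For each of 52 mitosis genes, the log2 ratio of the all-cell level when only the gated share of UMIs is set to its ZT12 value (x axis) and when only the levels inside and outside the gate are (y axis); the dashed line marks equal parts. Of the 52 points, 50 lie above the line, where the share gives the larger decrease, and Psrc1 and Tubb4b lie below it.

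How far a member was confined to gated cells varied widely. At ZT0 the level inside the gate was from 2.93 times (Rangap1) to 628 times (Nusap1) that outside. At ZT12 the gate held over 90% of the UMIs of 1 member, Cdc25c. Together, gated cells held 72.1% of the UMIs of the 52 members at ZT0 and 16.5% at ZT12. With so few gated cells at ZT12, the all-cell level of members such as Tubb4b, Rangap1 and Tmpo came there mostly from other cells, with 4.51%, 4.39% and 9.27% of their UMIs inside the gate.

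Other genes of the cycle were followed in the same cells from lists written for this comparison. Of 54 further mitosis genes, 25 met the rule as lower at ZT12 inside the gate, against 3.53% of all genes, and none as higher, against 1.84%, with a median log2 ratio of -0.95. By summed level the leading genes were Ube2s, a partner enzyme of Ube2c, at 753 and 362 CPM, the condensin subunit Smc2 at 397 and 276 CPM, Incenp, the scaffold of the passenger complex, at 315 and 145 CPM, and the checkpoint protein Bub3 at 283 and 150 CPM. Of 15 subunits and activators of the anaphase-promoting complex, 1, the activator Fzr1, met the rule as lower, at 83.7 and 29.8 CPM, against 3.53% of all genes, a count too small to set apart from that share. The list median was -0.16. Its most abundant genes were Anapc5 at 224 and 183 CPM, Anapc11 at 133 and 144 CPM, Cdc26 at 67.9 and 76.5 CPM and Anapc13 at 90.6 and 51.5 CPM.

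Genes of S phase, when DNA is copied, lay the other way inside and outside the gate, but not in all cells together. Inside the gate none of 42 was lower by the rule at ZT12 (3.53% of all genes were) and 13 were higher, against 1.84% of all genes, with a median log2 ratio of +0.72. The most abundant were the replication clamp Pcna at 260 and 399 CPM, Dut, which clears dUTP, at 277 and 353 CPM, the ribonucleotide reductase subunit Rrm1 at 251 and 259 CPM, and the histone chaperone Nasp at 187 and 287 CPM, none of which met the rule. In the band of 12 or more per 10000, 11 of the 42 were higher at ZT12, against 3.08% of all genes, with a median of +0.59. Outside the gate 6 of the 27 that could be assessed were higher, against 0.342% of all genes, with a median of +0.46. In all cells 6 of the 37 assessed were lower at ZT12, against 2.49% of all genes, and 1 was higher, against 0.283%, with a median of -0.29. The gated ZT12 cells thus held less of the mitosis genes and more of the S phase genes per UMI than the gated ZT0 cells.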

How the data were processed

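The authors deposited raw UMI counts per gene and cell barcode, 1 table per library. Per the submitters' processing notes they were made with Cell Ranger 2.1.1 and mm10, while the file headers name Cell Ranger 4.0.0. The annotation release is not stated in them, and no correction for free RNA was made here.

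Barcodes with fewer than 500 genes or 10% or more mitochondrial UMIs were removed (129 of 1726 at ZT0, 191 of 2819 at ZT12). Scrublet in scanpy 1.11.5 called 4 and 8 doublets, which were removed, but rates of 0.25% and 0.304% mean that doublets were in effect not removed. UMIs were summed over cells in Python 3.11.15 (scipy 1.17.1) and expressed as CPM. Shares carry Clopper-Pearson and ratios exact conditional binomial intervals. The computation of the rule was tested on simulated data. TMM factors came from edgeR 4.0.16.

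The members, functional groups, lists and rules were chosen with earlier results of these data known. In each functional group the members with the widest and narrowest difference inside the gate are given in full, and of each other list the 4 genes with the highest mean level inside the gate. Fzr1 was named after its values were seen. Marker lists covered basal, suprabasal, leukocyte, stromal (fibroblast, endothelial, muscle and glial) and taste or simple epithelial cells. Alternatives changed the gate, its genes, depth, cell filter, doublets, low value filter, pseudocount, scaling and averaging.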

Additional observations from a re-analysis of the deposited data

How the results depend on the processing

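With 1 library per time, leaving a library out was not possible. No paired analysis was possible because each time has 1 library and no test was made. The ratio of gated shares ran from 3.48 to 5.82 over 12 alternatives, and no single member changed direction among those that met the rule. Inside the gate the median log2 ratio was -1.33 with a limit of 2 per 10000, -1.41 with Top2a alone and -1.32 with 12 other genes. It was -1.32 after thinning, with the gate redrawn on the thinned counts, and -0.39 with the ZT0 makeup of bands. The count of lower members there was 18 of 52 with a limit of 5 and 2 with the ZT0 makeup of bands, and ran from 28 to 43 in the other 16. In all cells the median was -2.07 after thinning, -2.16 with a minimum of 20 CPM, -2.74 with a pseudocount of 0.1 and -2.16 as a mean over cells, and the count was 23 with a minimum of 20 CPM, where fewer members are assessed. Outside the gate the median was -0.25 with Top2a alone, +0.10 with a minimum of 20 CPM and -0.25 with no minimum, and the count of lower members was 1 with Top2a alone, 1 after thinning, 1 as a mean over cells and 2 with no minimum. The cause of these shifts was not tested beyond what the alternatives change. The alternatives on band makeup, on 3 gate UMIs, on leukocyte-marked cells and on the single ZT12 cell with the most member UMIs were chosen after the data were seen. Without that cell 37 of 52 members were lower inside the gate. The ZT0 library was left whole in that alternative, so most ratios rise by construction. Depth limits the rarest members: 22 UMIs stood behind Gtse1 and 31 behind Cdc25c in gated ZT12 cells.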

Other observations

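Over 7 taste and simple epithelial markers the summed level in gated cells was 12.8 CPM at ZT0 and 7.60 CPM at ZT12, and over 7 suprabasal markers 4973 and 4127 CPM. Cells with no UMI of Top2a or Mki67 made up 66.0% of the ZT0 library and 77.9% of the ZT12 library.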
